A study of Homo sapiens with 6 samples.

Results

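The 7 genes KCNIP4, SYT1, NLGN1, CNTNAP2, NRXN3, DLG2 and CSMD1 are long genes of neurons and their synapses. They were chosen by name, with earlier results of these data known. Every H3K9me3 peak that overlapped 1 of their bodies by at least 1 bp is described here. The genes are 7 of 19974 protein-coding genes on chromosomes 1 to 22 and X, from 0.588 to 2.30 Mb long and 10.9 Mb in all. Together they held 18 of 22627 peaks with the control guide, 2 of 14087 with PURPL guide 1 and 6 of 11721 with PURPL guide 2. H3K9me3, the trimethylation of lysine 9 of histone H3, was profiled by chromatin immunoprecipitation and sequencing in fibroblasts of BJ, an established cell line from human skin. They carried a control guide RNA (sgCtrl), PURPL guide 1 (sgRNA-PURPL#1) or PURPL guide 2 (sgRNA-PURPL#2) for CRISPR interference, a method that silences a gene by guiding a repressor protein to it. PURPL makes a long non-coding RNA and is a target of p53. There was 1 H3K9me3 library and 1 input library for each of the 3 lines. The labels do not name the repressor, how it was delivered, or whether a line is 1 clone. No treatment or time point is given in the labels.

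H3K9me3 marks compact, repressed chromatin. Methyltransferases of the SUV39H and SETDB1 families write it, HP1 proteins bind it, and it lies mostly over repeats, centromere flanks and zinc finger genes. Many synaptic genes are silent in most cells outside the nervous system, and some are unusually long because of large introns. Those described here encode both sides of the synapse: a sensor of vesicle release, adhesion proteins that join across the cleft, a scaffold behind them, and proteins that tune ion channels or complement.

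With 1 library per cell line no difference has a replicate check, so no p-value or SD is given. The depth of the libraries is unknown, and the lists differ in length. A gene may therefore lack a peak because fewer peaks were called in that list, and these causes cannot be told apart. No list had a peak in the body of PURPL itself (0, 0 and 0), and its transcript was not analysed here. The labelled cell type could not be checked from levels of expression, since the lists hold none. Of 9 fibroblast marker genes 2 had a control peak, against 13.1% of all protein-coding genes, and of 6 neuronal marker genes 0 did, with 0 in either guide list.

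Pooled over the 7 genes, peaks were fewest with PURPL guide 1. Gene by gene, guide 1 alone had the lowest number only in KCNIP4 and CNTNAP2. In each of the others another list had as few. In the control, 6 of the 7 genes had at least 1 peak, with 2 genes marked with guide 1 and 5 with guide 2. Among the 307 other protein-coding genes of at least 500 kb, 60.9% had a control peak, 33.6% a guide 1 peak and 19.5% a guide 2 peak. Among all protein-coding genes the shares were 13.1%, 6.55% and 3.73%. Of the length of the 7 genes, peaks covered 16.1, 1.27 and 2.33 kb in the control, guide 1 and guide 2 lists.

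The order of the guides was the reverse of that in other long genes, on small counts. In the 7 genes the number of peaks was 11.1% of the control with guide 1 and 33.3% with guide 2. In the other genes of at least 500 kb these shares were 30.1% and 12.5%, counted once per gene. As a share of each list, the 7 genes held 0.0796% of the control peaks (95% Wilson interval 0.0503 to 0.126), 0.0142% of the guide 1 peaks (0.00389 to 0.0518) and 0.0512% of the guide 2 peaks (0.0235 to 0.112). The intervals of the guides overlap, and they cover counting error only. They do not allow for the choice of the 7 genes, which was made with earlier results of these data known.

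**Figure D1:**
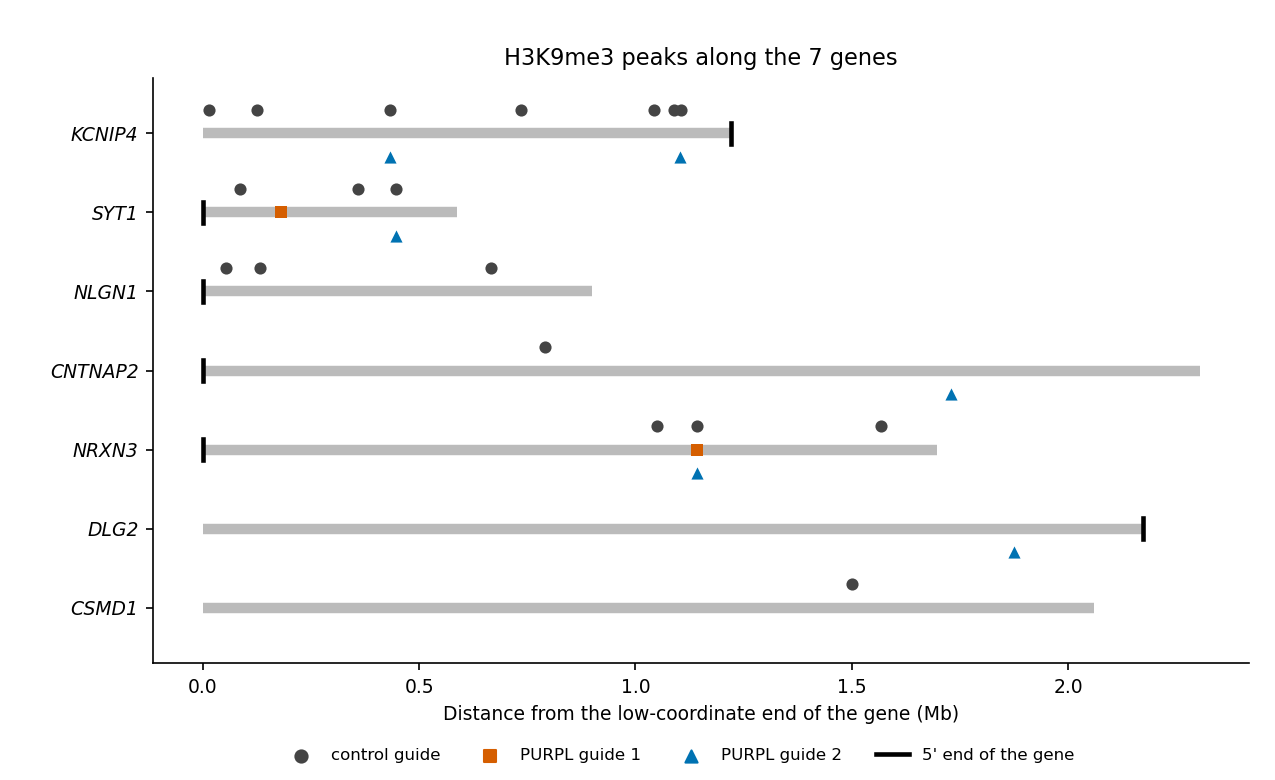
Peaks along the 7 genes, drawn to scale. The x axis is the distance in Mb from the low-coordinate end of each gene (grey bar), a black tick marks the 5′ end where the promoter table gives a strand, and each symbol is 1 peak (circles control guide, squares PURPL guide 1, triangles PURPL guide 2). KCNIP4 has 7 control peaks, DLG2 has none, and NRXN3 has 1 place with a peak in every list.

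SYT1, the calcium sensor of synaptic vesicle release (gene ID 6857, chr12:78863982-79452008), was the most densely covered of the 7 genes in the control. It had 3 control peaks, 1 guide 1 peak and 1 guide 2 peak, over 4400, 862 and 222 bp. The control peaks lay at 14.6%, 61.0% and 76.0% of the gene from its 5′ end, with widths of 1703, 1826 and 871 bp and scores of 20, 21 and 12. The score is the authors' own whole number for each peak, on a scale not named in the sources used here, and serves only to rank peaks within a list. The guide 1 peak (chr12:79043170-79044031, score 15) lay 92.7 kb from the nearest control peak, at 30.5% of the gene. The guide 2 peak (chr12:79310223-79310444, score 17) ended 140 bp before the third control peak. The first control peak and the guide 1 peak also lay in the annotated lncRNA gene LOC105369863.

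NLGN1, a postsynaptic adhesion protein that binds neurexins (gene ID 22871, chr3:173395952-174294372), had 3 control peaks and none with either guide. They lay at 6.04%, 14.7% and 74.2% of the gene from its 5′ end. The last, at chr3:174061689-174064148, was the widest peak of the 7 genes, with 2460 bp against 338 and 654 bp for the other two. Their scores were 14, 18 and 18. The nearest guide 1 peak to any of these was 878 kb away and the nearest guide 2 peak 1821 kb.

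NRXN3, a presynaptic neurexin and partner of neuroligins (gene ID 9369, chr14:78170373-79868291), was the 1 member where peaks of all 3 lists lay at or beside 1 site. Its control peaks lay at 61.8%, 67.3% and 92.3% of the gene, all beyond the middle of the gene, and were 274, 508 and 905 bp wide. The middle one, chr14:79312788-79313295, had the highest score of all peaks in the 7 genes, 34, above 77.8% of the control list. A guide 1 peak of 410 bp (chr14:79312792-79313201, score 15) lay inside it. A guide 2 peak of 776 bp (chr14:79311999-79312774, score 13) ended 13 bp before it. This guide 2 peak did not overlap the guide 1 peak either, so no base was called in all 3 lists. Covered length was 1687, 410 and 776 bp. This site lies about 33 kb downstream of the nearest annotated start of NRXN3, an internal start.

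CNTNAP2, a neurexin relative that clusters potassium channels on axons (gene ID 26047, chr7:146116801-148420998), had 1 control peak, 0 guide 1 peaks and 1 guide 2 peak. The control peak was 1051 bp wide with a score of 17, at 34.3% of the gene. The guide 2 peak was 463 bp wide with a score of 16, at 75.1%. The 2 peaks stood 938 kb apart, so they do not mark the same place, although the gene counts as marked in both lists.

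DLG2, a scaffold protein of the postsynaptic membrane (gene ID 1740, chr11:83455012-85628373), had 0 control peaks over 2.17 Mb. It had 0 guide 1 peaks and 1 guide 2 peak, 237 bp wide with a score of 18, at chr11:85329794-85330030. Of the other genes of at least 500 kb without a control peak, 9.17% had a guide 1 peak and 7.5% had a guide 2 peak. The nearest control peak lay 505 kb away.

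KCNIP4, a calcium-binding subunit of Kv4 potassium channels (gene ID 80333, chr4:20728606-21948772), had the most peaks of the 7 genes. It held 7 of the 18 control peaks, 0 guide 1 peaks and 2 guide 2 peaks, with 5155, 0 and 636 bp covered. The control peaks were spread from 9.46% to 98.9% of the gene from its 5′ end, and 3 of them lay between 9.46% and 14.6%. They were 225 to 1063 bp wide with scores of 13 to 27. The highest, at chr4:21770019-21771043, exceeded 65.4% of the control list. The last, chr4:20741428-20742112, also lay in the body of the protein-coding gene PACRGL. The guide 2 peaks, chr4:21160520-21160907 (score 20) and chr4:21831673-21831920 (score 18), lay 525 and 942 bp from a control peak. Without KCNIP4 the other 6 genes had 11, 2 and 4 peaks.

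CSMD1, a large membrane protein with CUB and sushi domains linked to complement control (gene ID 64478, chr8:2935361-4994914), had 1 control peak and none with either guide. It was 389 bp wide with a score of 21, at chr8:4435731-4436119, 72.9% of the way from the low-coordinate end. It overlapped the annotated lncRNA gene LOC124905445.

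Peaks lay in both the 5′ and the 3′ parts of the genes. Of the 17 control peaks in the 6 genes with a strand in the promoter table, 8 lay in the first 50% of the gene from its 5′ end and 9 in the rest. With guide 1 these numbers were 1 and 1, and with guide 2 they were 2 and 4. The annotation used here has no exons, so peaks were not assigned to exons or introns. None of the 19 annotated promoter windows of these 6 genes (250 bases before to 50 after a start) held a peak in any list. Among 34961 promoter windows of all genes, 0.140% held a control peak, 0.0772% a guide 1 peak and 0.0372% a guide 2 peak, so a promoter without one is usual. The smallest distance from a peak in a gene body to a start of its own gene was 33.4 kb in the control and with guide 1, and 32.6 kb with guide 2, all at the NRXN3 site.

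Windows at 2 starts are printed because they lie closest to peaks. They are the internal start of NRXN3, before the site with peaks of all 3 lists at or beside it, and the start of SYT1. The control peak nearest to the SYT1 start lay 10.98 kb away, outside the gene. The sequences are from RefSeq for GRCh38.p14, 5′ to 3′ on the plus strand, with each CG, which reads the same on both strands, in capitals.
NRXN3, internal start, chr14:79279130-79279429: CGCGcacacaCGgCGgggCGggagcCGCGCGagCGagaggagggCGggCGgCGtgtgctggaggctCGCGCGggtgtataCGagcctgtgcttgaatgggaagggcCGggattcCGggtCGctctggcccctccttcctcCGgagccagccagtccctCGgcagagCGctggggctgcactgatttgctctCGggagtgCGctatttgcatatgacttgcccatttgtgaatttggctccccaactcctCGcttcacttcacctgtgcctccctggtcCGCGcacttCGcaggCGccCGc
SYT1, chr12:78864524-78864823: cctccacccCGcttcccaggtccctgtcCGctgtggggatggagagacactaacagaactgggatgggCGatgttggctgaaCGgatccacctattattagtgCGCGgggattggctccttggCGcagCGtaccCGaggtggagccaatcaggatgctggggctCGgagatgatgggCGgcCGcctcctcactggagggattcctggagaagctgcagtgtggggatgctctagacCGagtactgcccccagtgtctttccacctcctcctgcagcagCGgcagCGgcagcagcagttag
The NRXN3 window holds 30 CG and the SYT1 window 15, against a median of 14 over the 35116 windows in the table, 96.0% of which hold at least 1. NRXN3's other 2 windows hold 5 and 6 CG. The CG count is a description of these letters and was not compared with the mark, since no window held a peak.

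Guide 2 peaks in these genes lay beside control peaks more often than on them. Of the 6 guide 2 peaks 0 overlapped a control peak and 4 lay within 1 kb of one, 2 in KCNIP4, 1 in SYT1 and 1 in NRXN3. In the other genes of at least 500 kb, 36.0% of 75 guide 2 peaks overlapped a control peak and 10.7% lay within 1 kb without overlap. Seen from the control, 1 of 18 peaks was overlapped by guide 1 and 0 of 18 by guide 2. For 0 of 18, 3 counts taken as the upper limit give a share of up to 16.7%. The shares in the other long genes were 10.9% and 4.67%. All 4 of the neighbouring guide 2 peaks lay on the low-coordinate side, upstream of the control peak in SYT1 and NRXN3 and downstream in KCNIP4. In the other long genes 6 of 8 such peaks did, and over all other protein-coding genes 37 of 72. The 1 kb limit and the count by side were chosen after these positions were seen.

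**Figure D2:**
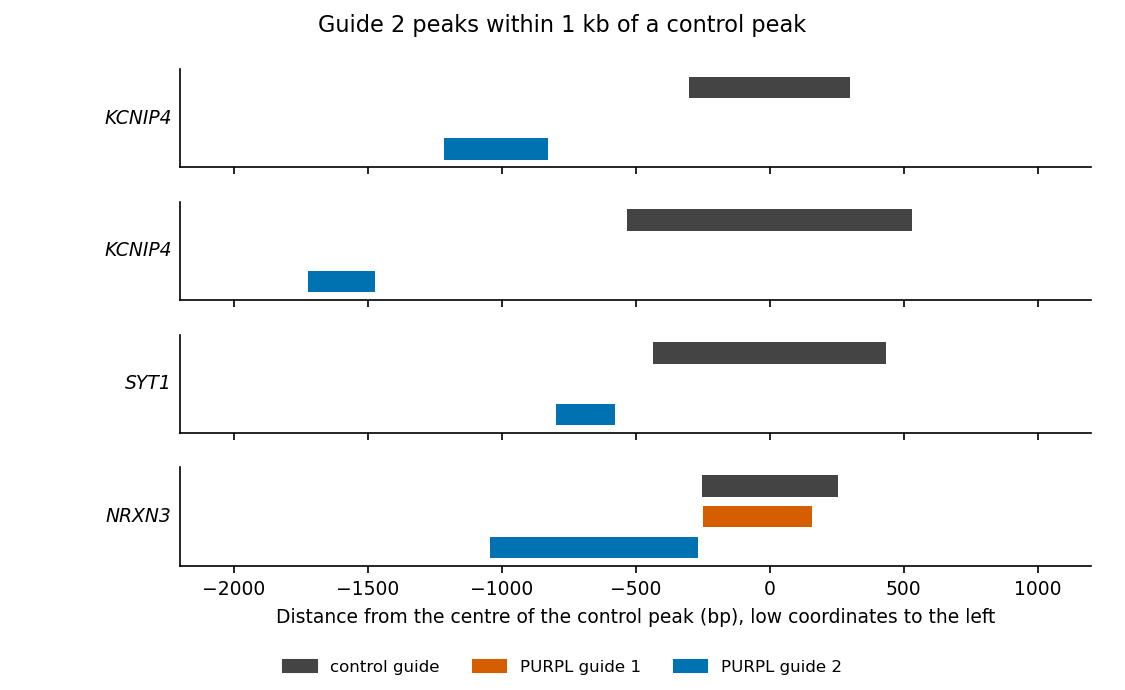
The 4 places where a guide 2 peak lies within 1 kb of a control peak. The x axis is the distance in bp from the centre of the control peak, and bars are peaks of the control guide (top), PURPL guide 1 (middle) and PURPL guide 2 (bottom); the NRXN3 site alone has a guide 1 peak, and every guide 2 peak ends 13 to 942 bp before the control peak.

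The peaks of these genes ranked low in their lists. Scores had a median of 17 in the control (12 to 34), 15 with guide 1 (both 15) and 17.5 with guide 2 (13 to 20), against medians of 21, 22 and 22 over the whole lists. Only 2 of the 18 control peaks, in KCNIP4 and NRXN3, and none of the guide peaks scored above the median of their list. Peaks in the other long genes had median scores of 16, 16 and 18, close to those of the 7 genes. Median widths were 777, 636 and 318 bp in the 7 genes, and 624, 427 and 343 bp in the other long genes. All 6 guide 2 peaks were narrower than the median of their list, 785 bp. The narrowest peak of the 7 genes, 222 bp in SYT1, was within 3 bp of the narrowest in the guide 2 list, 219 bp.

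**Figure D3:**
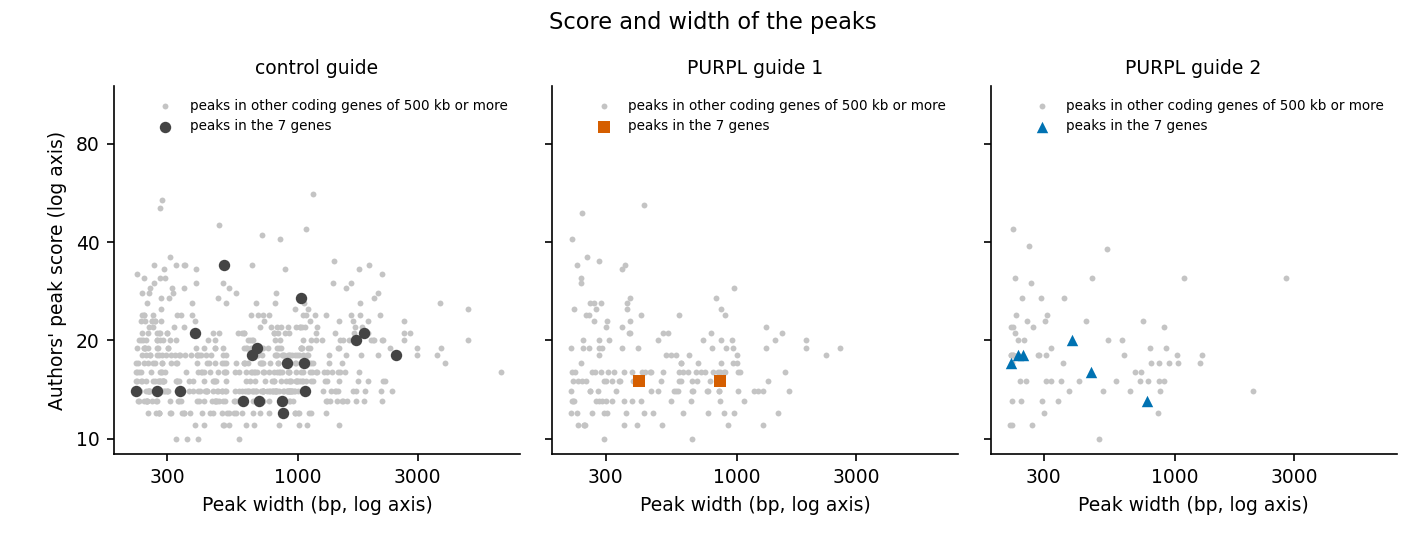
Score and width of the peaks. Each panel is 1 list, with peak width in bp and the authors' score on log axes; coloured symbols are peaks in the 7 genes and grey points are peaks in other protein-coding genes of at least 500 kb. The 18 control, 2 guide 1 and 6 guide 2 peaks lie within the cloud of the other long genes, with scores from 12 to 34.

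Covered length was at most 50% of the control in both guides for all 6 genes with a control peak. This call held for 83.4% of the control-marked other long genes with guide 1 and for 89.8% with guide 2, so the count lies near the background. Every peak was absent with guide 1 in 4 of the 6 genes (KCNIP4, NLGN1, CNTNAP2 and CSMD1) and with guide 2 in 2 (NLGN1 and CSMD1), against backgrounds of 50.8% and 72.7%. When each list was limited by score to at most the 11721 peaks of the shortest, 2 control peaks, 0 guide 1 peaks and 6 guide 2 peaks remained in the 7 genes. This limit kept control peaks only from a score of 22 and guide 2 peaks from a score of 10. It therefore removed the 16 lower-scoring control peaks by construction and no guide 2 peak, and these numbers do not compare the cell lines. At a score limit of 22 in all 3 lists, 2, 0 and 0 peaks remained.

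Peak density in the gene bodies was compared with that in the 1 Mb on each side. In the control the 7 bodies had 0.165 peaks per 100 kb and their flanks 0.364, a ratio of 0.452 (95% Wilson interval 0.266 to 0.768, from 18 and 51 peaks). With guide 1 the densities were 0.0183 and 0.0714, a ratio of 0.256 (0.0631 to 1.04, from 2 and 10 peaks). With guide 2 they were 0.0548 and 0.0286, a ratio of 1.92 (0.582 to 6.33, from 6 and 4 peaks). Both guide intervals include 1, so neither direction is larger than counting error. All 3 intervals pool peaks over the genes as if each peak were independent. In the control, SYT1 supplied 13 and 7 of the 51 flank peaks, on its low-coordinate and high-coordinate sides. KCNIP4 supplied 7 of the 18 body peaks. The same ratio over the other long genes was 0.736, 0.692 and 0.554. Control density was lower in the body than in the flanks for 63.5% of them.

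The genes differed among themselves in this respect. SYT1 lay in the most densely marked surroundings, with 1.3 control peaks per 100 kb on its low-coordinate side and 0.7 on the other, against 0.510 in the gene. Of the 13 control peaks on the low-coordinate side 2 lay in the neuron navigator gene NAV3, the 1 coding gene there. NRXN3 had 0.177 in the body, 0.3 on its low-coordinate side and 0.8 on the other. DLG2 had 0 in the body, with 0.1 and 0.4 beside it, and CSMD1 0.0486, with 0 and 0.2.

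In 3 genes the control body was denser than the mean of its flanks, on few peaks. KCNIP4 had 0.574 peaks per 100 kb (7 peaks) against 0.5 and 0.2 (5 and 2 peaks). NLGN1 had 0.334 (3 peaks) against 0.2 and 0.4 (2 and 4 peaks). All 4 peaks of the high-coordinate flank of NLGN1 lay in the long gene NAALADL2. CNTNAP2 had 0.0434 (1 peak) against 0 on both sides. With the guides, 4 flank peaks or fewer stood beside any member: guide 1 had 4 around SYT1, 2 around KCNIP4, 1 each around NLGN1, NRXN3, DLG2 and CSMD1, and 0 around CNTNAP2. Guide 2 had 2 around DLG2, 1 around KCNIP4 and 1 around CNTNAP2, the last in EZH2, which encodes the H3K27 methyltransferase.

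**Figure D4:**
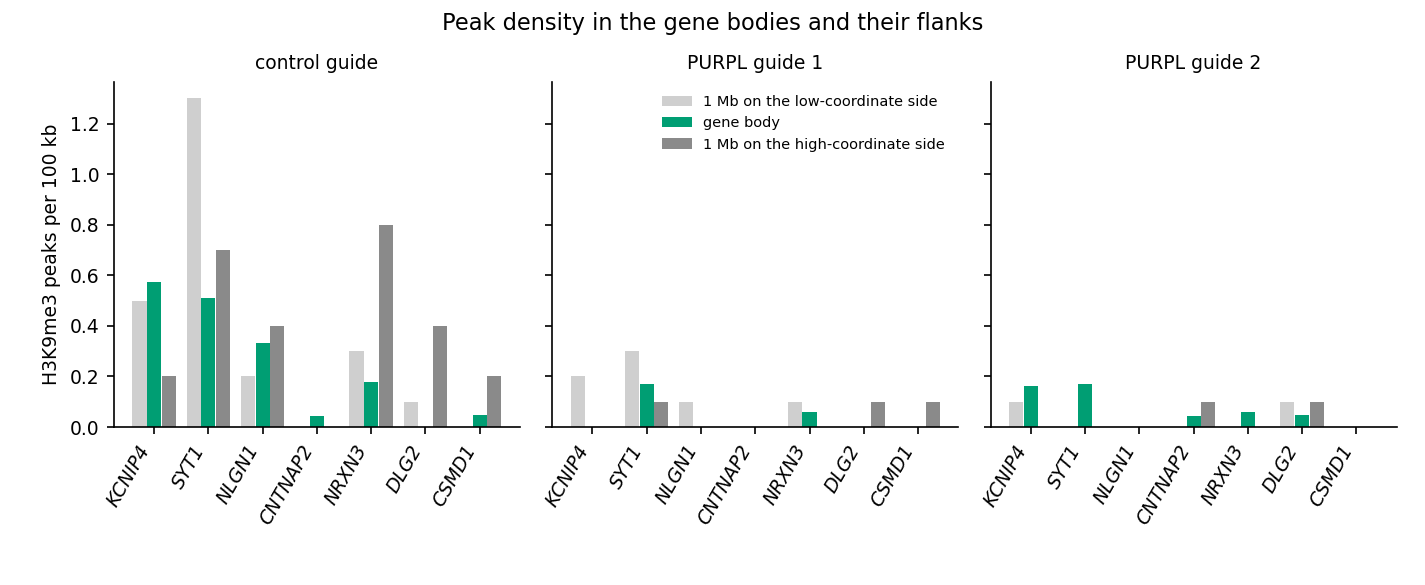
Peaks per 100 kb in each gene body (green) and in the 1 Mb on its low-coordinate (light grey) and high-coordinate (dark grey) side, 1 panel per list on a shared axis. In the control panel the flanks of SYT1 stand highest, at 1.3 and 0.7, and the bodies of KCNIP4 and SYT1 reach 0.574 and 0.510.

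Ordered by control density, KCNIP4 (0.574 peaks per 100 kb) and SYT1 (0.510) came first, then NLGN1 (0.334), NRXN3 (0.177), CSMD1 (0.0486), CNTNAP2 (0.0434) and DLG2 (0). Neighbours in this order rest on 7, 3, 3, 3, 1, 1 and 0 peaks, and no spread over samples can be given. KCNIP4 was denser than 259 of the 307 other long genes and SYT1 than 247, while CNTNAP2 exceeded 120 and CSMD1 121, of which 120 had no control peak. The 3 other long genes closest to the 7 together, by the distance between covered bases per 100 kb in the 3 lists, were ARHGAP15, MYO16 and NBAS. They had 1, 1 and 2 control peaks and none with either guide, and 145, 151 and 142 covered bases per 100 kb in the control against 147 in the 7 genes. With guide 1 and guide 2 the 7 genes had 11.6 and 21.3 covered bases per 100 kb, against 0 in these 3 genes. The 3 were picked on these same values, so their likeness is built in, and it rests on 3 lists.

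**Figure D5:**
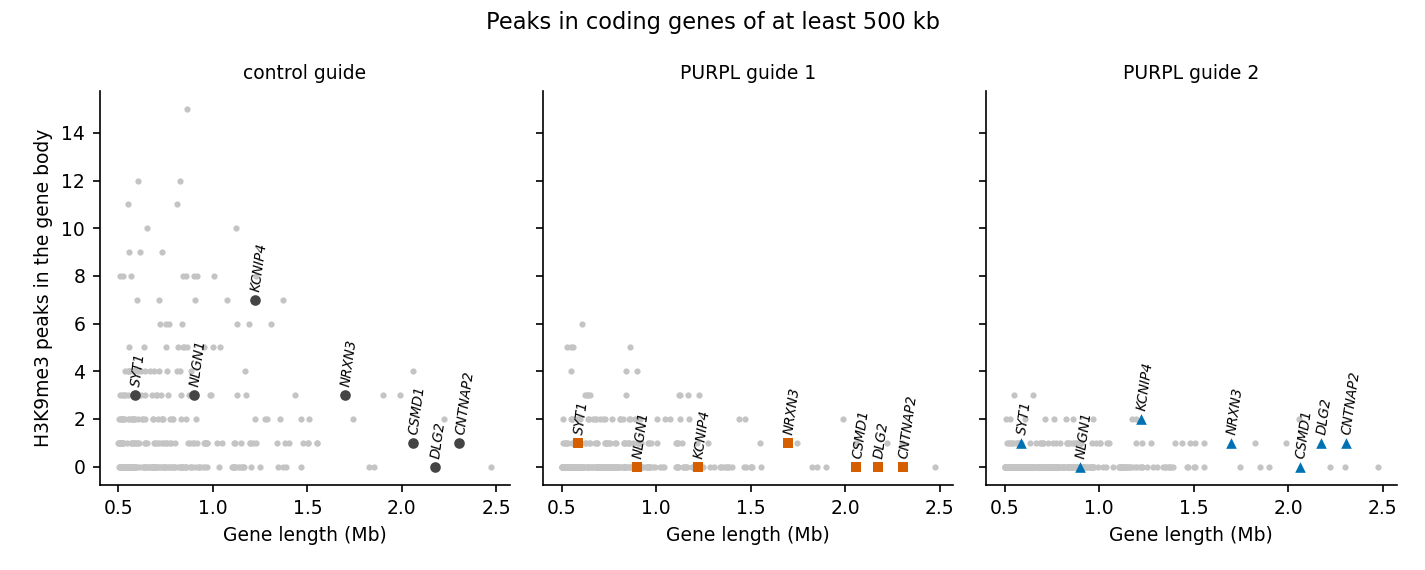
Number of peaks in the body against gene length in Mb for protein-coding genes of at least 500 kb, 1 panel per list; grey points are the 307 other genes and labelled symbols the 7 genes. KCNIP4 has 7 control peaks, and the 3 longest of the 7, CNTNAP2, DLG2 and CSMD1, have 1, 0 and 1.

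Relatives and partners of these proteins were read from 7 lists of other synaptic and long neuronal genes. Of their 173 members 54 (31.2%) had a control peak, 24 (13.9%) a guide 1 peak and 15 (8.67%) a guide 2 peak. These shares lie between those of all protein-coding genes (13.1%, 6.55% and 3.73%) and those of the 307 other genes of at least 500 kb (60.9%, 33.6% and 19.5%), and the lists hold genes of many lengths. Covered length was 78.0, 20.2 and 10.3 kb, so 25.9% and 13.2% was left with guide 1 and guide 2. Summed gene by gene, 36.1% and 13.99% was left over all protein-coding genes, and 22.5% and 8.55% over the 307 other long genes. Of the 54, 43 had at most 50% of the control length with guide 1 and 49 with guide 2. Over all control-marked protein-coding genes these calls held for 81.7% and 93.8%, and over the control-marked other long genes for 83.4% and 89.8%.

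Among 31 partners in adhesion, 10 (32.3%) had a control peak, 3 (9.68%) a guide 1 peak and 1 (3.23%) a guide 2 peak. These shares were 13.1%, 6.55% and 3.73% for all protein-coding genes, and 60.9%, 33.6% and 19.5% for other genes of at least 500 kb. The 31 genes span 18.4 Mb. Control peaks covered 45.6 bp per 100 kb of them, against 510 over all protein-coding genes and 187 in the other long genes. NEGR1, a neuronal growth regulator of the IgLON family, had 2546, 1115 and 1255 bp, and CNTN1 (contactin 1) had 1755 bp and PTPRS, a receptor phosphatase, 1183 bp in the control alone. NRXN2, NLGN2, NLGN3 and NLGN4X had no peak in any list. Of 18 scaffold genes 6, 4 and 1 were marked (33.3%, 22.2% and 5.56%). Their control peaks covered 263 bp per 100 kb, above the 187 in the other long genes and below the 510 over all protein-coding genes. The longest control coverage was in MAGI3 (5121, 582 and 0 bp), HOMER1 (3810 bp in the control alone) and DLG1 (3538 bp in the control alone). DLG1 is a paralog of DLG2. DLGAP2 had a guide 1 peak alone (259 bp).

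The vesicle release list held 9, 4 and 5 marked genes of 38 (23.7%, 10.5% and 13.2%, against 13.1%, 6.55% and 3.73% of all protein-coding genes). In other genes of at least 500 kb the shares were 60.9%, 33.6% and 19.5%. Control peaks covered 150 bp per 100 kb of this list, against 510 over all protein-coding genes and 187 in the other long genes. SYN3, a synapsin, had 3102, 2648 and 2493 bp, ERC2 of the active zone 2369, 340 and 0 bp, and the priming factor CADPS 2345 bp in the control alone. PCLO, another active zone protein, had 1336 bp and CADPS2 271 bp with guide 2 alone. Guide 2 thus covered 40.4% of the control length in this list, with 2493 of its 5192 bp in SYN3 and 1336 in PCLO.

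The list of the Kv4 channel complex holds 8 relatives and partners of KCNIP4, without KCNIP4 itself. Of these, 2, 1 and 1 were marked (25.0%, 12.5% and 12.5%), against 13.1%, 6.55% and 3.73% of all protein-coding genes. In lists this short 1 gene moves the share far. The auxiliary subunits DPP6 and DPP10 had 516 and 273 bp in the control, DPP10 had 222 bp with guide 2, and the channel gene KCND2 had 727 bp with guide 1 alone. CSMD2 and CSMD3, the paralogs of CSMD1, had 1035 and 262 bp in the control and 613 and 450 bp with guide 1, with none with guide 2. Of 36 glutamate and GABA receptor genes 6, 2 and 1 were marked (16.7%, 5.56% and 2.78%), near the 13.1%, 6.55% and 3.73% of all protein-coding genes. These 36 genes span 11.8 Mb, and their control peaks covered 38.3 bp per 100 kb. That is below the 510 over all protein-coding genes and the 187 in the other long genes. Among the marked genes were GRIK2 (1146, 1185 and 0 bp) and GRM5 (244 bp with guide 1 alone). Of 37 other long neuronal genes 19, 8 and 6 were marked (51.4%, 21.6% and 16.2%), below the 60.9%, 33.6% and 19.5% of other genes of at least 500 kb. MACROD2 had 3714, 1075 and 806 bp, KCNQ5 3273 bp in the control alone, and the axon guidance receptor ROBO1 3163, 2201 and 0 bp. Peaks without a control peak were found there in NRG1 (547 bp) with guide 1 and in TENM1 (361 bp) with guide 2, among others.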

How the data were processed

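H3K9me3 was measured in 3 BJ cell lines with 1 library each, and the 3 input libraries have no list of their own here. The submitters' processing notes name the builds hg38 and GRCh38.p13 and the tools MACS2 2.2.9.1, Bowtie2 2.4.2, deepTools 3.5.1 and GATK. The sources used here give neither settings nor read numbers, so depth is unknown. The authors deposited 1 peak list per cell line, each with a score per peak, so peaks were called per sample. The guide names within the peak names differ from those in the labels, and lists were assigned by sample title.

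Peaks on chromosomes 1 to 22 and X were compared with gene bodies of the RefSeq table for GRCh38.p14, whose chromosomes match GRCh38.p13. All 7 genes and all 173 listed relatives were found by symbol, and 6 of the 7 had entries in the promoter table. Peaks were counted at 1 bp overlap, covered length is the bases under peaks inside the gene, and flanks are the 1 Mb on each side. Shares of each list and ratios of body to flank density carry 95% Wilson intervals, for counting error only. Genes were named by rule: the 7 members, up to 3 per list of relatives by control coverage and up to 2 per list with a guide peak alone, and the 3 most alike long genes. Some genes that this rule names are not reported here. Flank genes, and the neurexin and neuroligin genes with no peak, were added after their values were seen. The members and lists were chosen with earlier results of these data known. Alternatives were a score limit, lists of equal length, wider bodies, peak midpoints, merged peaks, other flanks and other gene lengths. Peak counting was tested on simulated data, where it recovered the planted peak number in 100% of 10072 genes. Scripts ran in Python 3.11.15 with pandas 2.3.3, numpy 2.4.6, matplotlib 3.10.9 and scipy 1.17.1.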

Additional observations from a re-analysis of the deposited data

How the results depend on the processing

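No paired analysis was possible because each group has 1 library, and for the same reason no replicate could be left out. Adding 5 kb to each side of the bodies, counting by peak midpoint and merging peaks within 5 kb left the number of peaks in the 7 genes at 18, 2 and 6. When only scores of 22 or more, the pooled median, were kept, the numbers were 2, 0 and 0, over 1533, 0 and 0 bp. In lists of equal length they were 2, 0 and 6 (1533, 0 and 2334 bp), or 4, 0 and 6 (3748, 0 and 2334 bp) with ties kept. Equal length kept every guide 2 peak and only the higher-scoring control peaks, so its counts do not compare the lines. Of the 21 counts by gene and list, 13 moved by more than 1.5 times under the score limit and 8 under equal length. Without KCNIP4 the control had 11. The equal-length lists with ties kept and those without KCNIP4 were added after the data were seen. The ratio of body to flank density in the control was 0.256 under both the score limit and equal length, and with guide 1 it was 0 under both. With 500 kb flanks or covered bases it stayed on the same side of 1 in all 3 lists. For guide 2 the score limit left no peak in bodies or flanks and gave no ratio. The share of other long genes with a peak was 67.2%, 39.1% and 26.6% for genes of at least 1 Mb. Under a call of 0 covered bases guide 1 had 4 genes and guide 2 had 2 of 6. Under the score limit 2 of 2 control-marked genes were called with each guide, and under equal length 2 of 2 with guide 1 and 0 of 2 with guide 2, alternatives also added after the data were seen.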
